A study of Mus musculus with 4 samples.

Results

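In all, 10 of the 21937 genes in the count table were followed across 4 RNA sequencing libraries of stimulated mouse CD4+ T cells: Amigo2, Nrn1, Itm2a, Pdgfb, St8sia1, Ttc28, Car2, Dapl1, Eps8l1 and Slc15a2. They were selected on their own read counts in these libraries, because earlier values placed them lower in a library labelled as lacking the ubiquitin ligase Itch, and they were grouped under the description of a stepwise fall. Each of the 10 averaged at least 2 CPM, reads scaled to a common library size, over the libraries. The question here was which of them were lower in steps, which were lower in a single library, and which were lower only in the library labelled as lacking 2 ligases. Since every value of these genes took part in choosing them, their levels and ratios are descriptions, and no test was run on them.

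The cells were splenic CD4+ T cells of B6 mice aged 6 weeks, treated with phorbol 12-myristate 13-acetate and ionomycin, drugs that switch on protein kinase C and calcium signalling without engaging the T cell receptor. There was 1 library for each of 4 genotypes: wild type, Itch f/f Cd4cre (Itch KO below), WWP2-/- (WWP2 KO) and a double knockout of Itch and WWP2 (called below by its label, DKO). In Itch f/f Cd4cre mice the floxed gene is deleted by a Cre recombinase under Cd4 control, so the deletion starts in developing T cells and is limited to cells that have used that promoter. The labels give neither the alleles of the double knockout nor the number of mice behind a library. Itch and WWP2 are ligases of the NEDD4 family, which attach ubiquitin to other proteins. Itch is known for restraining type 2 helper T cell responses, in part by marking the transcription factor JunB for degradation.

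The libraries held between 17130747 and 17990392 reads, so depth differed little among them. T cell markers were present throughout, with Cd4 at 4069 reads in wild type, 2901 in WWP2 KO, 4262 in Itch KO and 9441 in the library labelled DKO. They did not move together, since Cd5 had 12091, 11863, 10798 and 5484 reads in the same order. Wwp2 itself was read 4 times in WWP2 KO but 1135 times in the library labelled DKO, against 1363 times in wild type. The label of that library is therefore in doubt, and directions drawn from it belong to the library, not to a known genotype. Itch was read 1914 to 2389 times in each of the 4, and reads over the whole gene include exons outside a deleted part, so they check neither Itch label. With 1 library per genotype no difference below has a replicate check. The intervals given are 95% intervals of counting error only, since the labels name no molecular identifiers and several reads may come from the same molecule. Bulk RNA also cannot tell fewer cells of a type from less RNA per cell.

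Lower is used below for a level at least 2-fold under the comparator, computed with 2 added to each scaled count, with a counting interval of the fold that excludes 1. Fold values themselves are ratios of CPM after TMM scaling, a correction of library size for composition, with nothing added. By this measure 7 of the 10 genes were lower than wild type in Itch KO and 8 of the 10 were lower in the library labelled DKO. Of all 9926 genes with a mean of at least 2 CPM, 0.846% and 6.34% were lower in those comparisons. In WWP2 KO 0 of the 10 were lower, where 0.161% of all genes were. Between the library labelled DKO and Itch KO, 6 of the 10 were lower in the former and 3 were higher, against 5.16% and 9.18% of all genes. Those percentages are background and support nothing about the 10, which these contrasts chose.

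The shapes fell into 4 patterns. A graded gene was lower than wild type in Itch KO and lower again in the library labelled DKO than in Itch KO; 3 of the 10 were graded (Amigo2, Pdgfb and Ttc28), as were 0.262% of all genes. A double-only gene was lower in the library labelled DKO than in each other library while not passing the 2-fold measure in Itch KO or WWP2 KO; 3 of the 10 were of this kind (Nrn1, Itm2a and Car2), as were 3.12% of all genes. A single-library gene was lower in Itch KO than in each of the other 3 libraries. Of the 10, 3 were so (St8sia1, Eps8l1 and Slc15a2), with 0.0806% of all genes. This rule did not ask how the library labelled DKO stood against wild type. St8sia1 was lower there too, at 0.462-fold wild type (0.415 to 0.515), so its lower level was not limited to Itch KO. Dapl1 was level, lower than wild type in both libraries with no step between them past the measure, as were 0.332% of all genes. The stepwise description therefore held for 3 of the 10 by this measure.

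**Figure D1:**
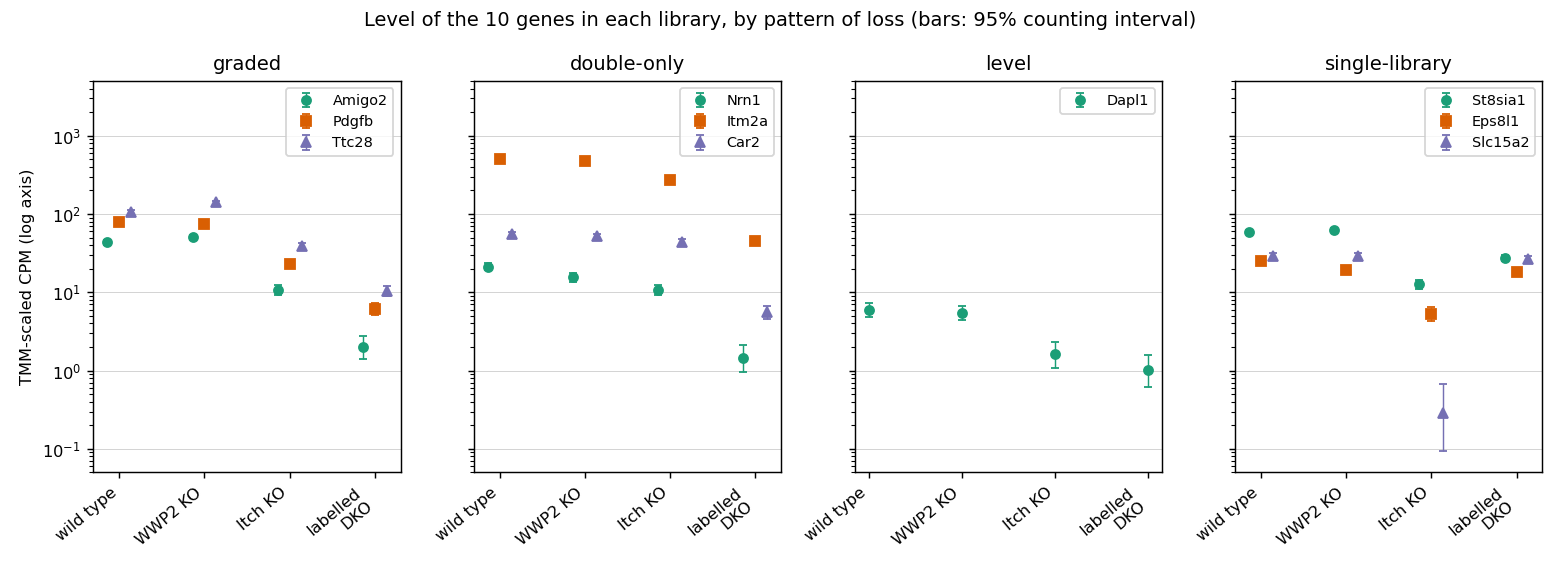
TMM-scaled CPM (log axis) of the 10 genes in the 4 libraries, 1 point per gene and library, in 4 panels by pattern, with 95% counting intervals as bars. In the graded panel both libraries on the right lie apart from the left pair and from each other, whereas in the single-library panel each gene is lowest in Itch KO, where Slc15a2 reaches 0.288 CPM, and St8sia1 is also low in the library labelled DKO, at 27.4 CPM against 59.2 in wild type.

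Amigo2 encodes an adhesion protein of the cell surface with leucine-rich repeats and an immunoglobulin domain, and had the largest difference in the library labelled DKO among the 3 graded members of the 10. It had 760 reads in wild type, 860 in WWP2 KO, 185 in Itch KO and 37 in the library labelled DKO. Both libraries without an Itch label were high and the other two formed separate lower levels. The level was 4.11-fold lower than wild type in Itch KO (3.50 to 4.85) and a further 5.36-fold lower in the library labelled DKO than in Itch KO (3.75 to 7.85). Of its whole log2 difference between wild type and the library labelled DKO, 45.7% was already present in Itch KO (38.9% to 52.5%).

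Pdgfb encodes the B chain of platelet-derived growth factor, a mitogen for mesenchymal cells. Its reads numbered 1358 in wild type, 1295 in WWP2 KO, 399 in Itch KO and 114 in the library labelled DKO. The steps were almost equal: 3.40-fold (3.04 to 3.82) from wild type to Itch KO and 3.75-fold (3.04 to 4.66) from there to the library labelled DKO, so that 48.1% of the log2 difference (42.8% to 53.4%) was present in Itch KO. Ttc28, a gene for a large tetratricopeptide repeat protein, had 1843 reads in wild type, 2416 in WWP2 KO, 680 in Itch KO and 194 in the library labelled DKO. Its first step was 2.71-fold (2.48 to 2.96) and its second 3.76-fold (3.20 to 4.43), with 43.0% of the log2 difference (38.7% to 47.3%) in Itch KO. Ttc28 was also 1.33-fold higher in WWP2 KO than in wild type (1.25 to 1.41), the highest such ratio among the 10.

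The promoter windows of both graded genes that the RefSeq table holds are shown because the genes share a shape that the windows had no part in choosing. Each line gives the 250 bases before the start site, 5′ to 3′, on build GRCm38.p6, which is not the mm9 build named for the counts. Capitals mark matches on either strand to any of 4 short motifs. The first is AGATAA, which factors of the GATA family are known to bind. The box CCACCC is known for Krüppel-like factors. The word CAGGTG is one form of the E-box, read by E proteins and their relatives. The core GGAAA is shared by sites of the calcium-driven NFAT factors.
Amigo2, chr15:97247288-97247537, - strand: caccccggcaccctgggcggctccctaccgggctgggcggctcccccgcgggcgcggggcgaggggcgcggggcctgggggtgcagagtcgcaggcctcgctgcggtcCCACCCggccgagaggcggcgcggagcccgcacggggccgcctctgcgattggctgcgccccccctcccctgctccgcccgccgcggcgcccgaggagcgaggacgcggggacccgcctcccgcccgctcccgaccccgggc
Ttc28, chr5:110879553-110879802, + strand: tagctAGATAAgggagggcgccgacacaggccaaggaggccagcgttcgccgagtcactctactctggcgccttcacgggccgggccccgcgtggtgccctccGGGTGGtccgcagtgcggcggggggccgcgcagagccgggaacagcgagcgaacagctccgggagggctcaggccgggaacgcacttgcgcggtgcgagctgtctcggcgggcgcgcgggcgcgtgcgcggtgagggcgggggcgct

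Nrn1, Itm2a and Car2 were lower than every other library in the library labelled DKO and stood less than 2-fold under wild type in Itch KO. Nrn1 encodes neuritin, a protein anchored at the cell surface that promotes neurite growth and is also known from tolerant and regulatory T cells. It had 367 reads in wild type, 266 in WWP2 KO, 185 in Itch KO and 27 in the library labelled DKO. The Itch KO level was 1.98-fold under wild type (1.66 to 2.38), just outside the 2-fold measure, and the library labelled DKO lay a further 7.34-fold under Itch KO (4.89 to 11.4). Nrn1 also had the lowest ratio of the 10 in WWP2 KO, 0.733-fold wild type (0.624 to 0.861), so its 4 libraries stood at 4 separate levels.

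Itm2a, which encodes a membrane protein with a BRICHOS domain and is switched on when thymocytes are selected, was the most heavily read of the 10. It had 8733 reads in wild type, 8249 in WWP2 KO, 4673 in Itch KO and 829 in the library labelled DKO. The ratio in Itch KO was 1.87-fold under wild type (1.80 to 1.94), an interval that stays below 2, and the library labelled DKO lay 6.04-fold under Itch KO (5.61 to 6.51). Shares of the log2 difference present in Itch KO were alike for Itm2a, at 25.8% (24.3% to 27.3%), and Nrn1, at 25.6% (18.5% to 32.7%). At a 1.5-fold measure both were graded, which brought the graded genes to 5 of the 10.

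Itm2a lies on chromosome X, and its RefSeq window held more motif matches than that of any other member with a window.
Itm2a, chrX:107403361-107403610, - strand: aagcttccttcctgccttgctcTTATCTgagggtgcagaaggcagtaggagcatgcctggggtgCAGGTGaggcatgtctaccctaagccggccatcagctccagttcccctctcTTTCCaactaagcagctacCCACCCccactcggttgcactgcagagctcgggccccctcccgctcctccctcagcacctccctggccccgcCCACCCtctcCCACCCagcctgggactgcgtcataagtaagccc

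Car2, the gene for a cytosolic carbonic anhydrase that converts carbon dioxide and water to bicarbonate and a proton, was the clearest case of a difference limited to the double label. It had 970 reads in wild type, 905 in WWP2 KO, 767 in Itch KO and 103 in the library labelled DKO. The first 3 libraries lay within 1.27-fold of each other, with Itch KO 1.27-fold under wild type (1.15 to 1.39), and the library labelled DKO was 7.98-fold under Itch KO (6.49 to 9.90). In Itch KO 10.2% of the log2 difference was present (6.16% to 14.2%). Markers of red cell precursors, which are also known to make carbonic anhydrase, were read beside Car2. The defining red cell genes Hba-a1 and Hbb-b1 had 0 reads in every library, as had 7 of 10 erythroid markers, and the summed level of the list was 0.173 to 0.538 CPM.

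**Figure D2:**
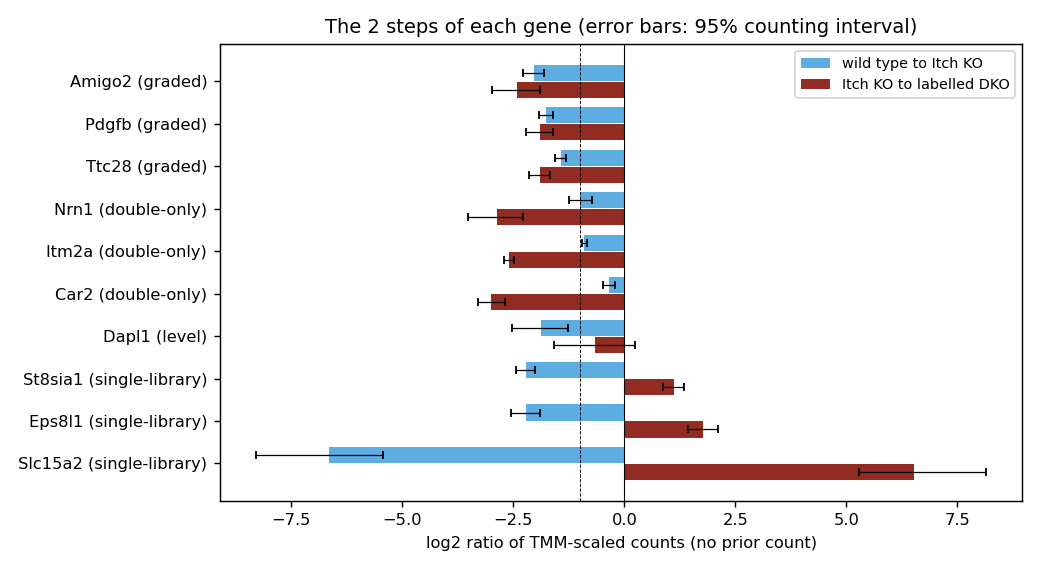
Log2 ratios of TMM-scaled counts for each gene, from wild type to Itch KO (blue) and from Itch KO to the library labelled DKO (dark red), with 95% counting intervals as error bars and a dashed line at a 2-fold difference. Both bars pass the line for Amigo2, Pdgfb and Ttc28, only the second does for Nrn1, Itm2a and Car2, and the 2 bars of St8sia1, Eps8l1 and Slc15a2 point in opposite directions.

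Dapl1, which encodes a small protein related to death-associated protein and is read in resting T cells, had the fewest reads in wild type. Its reads numbered 103 in wild type, 93 in WWP2 KO, 28 in Itch KO and 19 in the library labelled DKO. It was 3.68-fold lower in Itch KO (2.40 to 5.81) and 5.81-fold lower in the library labelled DKO (3.54 to 10.04) than in wild type. Between the last pair the ratio was 1.58-fold (0.851 to 2.99). That interval holds both 1 and 2, so a second step was not detectable at this depth and a 2-fold one could not be told from none.

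In the single-library genes Itch KO, not the library labelled DKO, held the lowest level. St8sia1 encodes GD3 synthase, the enzyme that adds a second sialic acid to the ganglioside GM3. It had 1027 reads in wild type, 1069 in WWP2 KO, 220 in Itch KO and 509 in the library labelled DKO. Itch KO was 4.67-fold under wild type (4.03 to 5.43), while the library labelled DKO stood between, 2.16-fold under wild type (1.94 to 2.41) and 2.16-fold over Itch KO (1.84 to 2.54). St8sia1 was thus lower in both labels, but less so in the library labelled DKO. At a 3-fold measure it fitted none of the 4 patterns.

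Eps8l1, a relative of the EGF receptor substrate Eps8 that links receptors to actin remodelling, had 433 reads in wild type, 333 in WWP2 KO, 93 in Itch KO and 338 in the library labelled DKO. It was 4.66-fold lower than wild type in Itch KO (3.72 to 5.89). The library labelled DKO and WWP2 KO could not be told apart (ratio 0.936, 0.802 to 1.09), both somewhat under wild type at 0.728-fold (0.630 to 0.841) and 0.778-fold (0.672 to 0.899). Slc15a2 encodes PEPT2, a transporter that takes up short peptides, bacterial ones among them, together with protons. Its reads numbered 506 in wild type, 493 in WWP2 KO, 5 in Itch KO and 490 in the library labelled DKO. The level in Itch KO was 0.288 CPM (0.0936 to 0.673) beside 26.4 to 29.2 CPM in the other 3 libraries, whose counting intervals overlapped. The ratio of the library labelled DKO to wild type was 0.903 (0.796 to 1.02), and its ratio to Itch KO was 91.5 (38.9 to 283).

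Slc15a2 had the lowest ratio to wild type of all 9926 genes in Itch KO, and its window is shown as the extreme of the single-library genes.
Slc15a2, chr16:36784963-36785212, - strand: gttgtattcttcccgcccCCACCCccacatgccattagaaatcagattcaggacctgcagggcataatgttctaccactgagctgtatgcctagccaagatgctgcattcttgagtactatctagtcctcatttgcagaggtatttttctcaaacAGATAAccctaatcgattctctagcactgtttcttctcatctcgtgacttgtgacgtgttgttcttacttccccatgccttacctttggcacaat

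**Figure D3:**
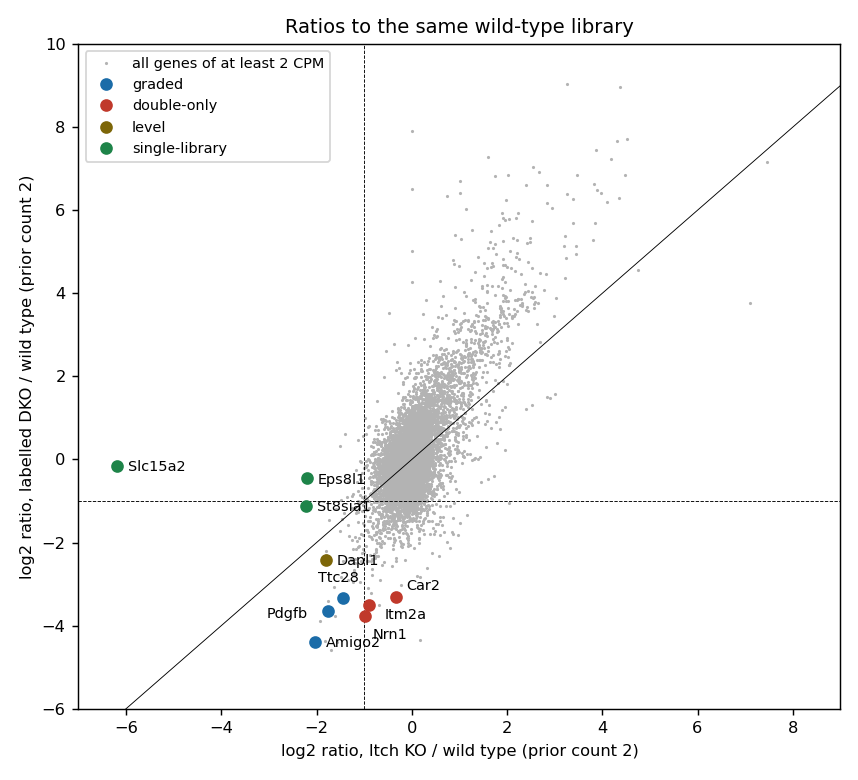
Log2 ratio to wild type (prior count 2) in Itch KO (x axis) and in the library labelled DKO (y axis) for all 9926 genes of at least 2 CPM (grey) and the 10 genes (coloured by pattern), with dashed lines at 2-fold lower and a line of equal ratios. Both axes share the wild-type library, so the slope of the cloud is no result; the graded and double-only genes lie below the line of equal ratios and the single-library genes above it.

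The level in the library labelled DKO can also be set against the sum of both single knockouts on the log2 scale. For the graded, double-only and single-library genes the sign of that departure follows from the pattern. In each of them the log2 ratio in WWP2 KO was smaller in size than the step from Itch KO to the library labelled DKO. Only the size of the departure is therefore a further description. The sum also takes a double knockout that the Wwp2 reads put in doubt. For Amigo2 the ratios to wild type in Itch KO and WWP2 KO added to -1.84, and the library labelled DKO stood at -4.46, a departure of -2.62 (-3.14 to -2.09). Departures of the same sign were found for Pdgfb at -1.85 (-2.17 to -1.53), Ttc28 at -2.32 (-2.56 to -2.07), Nrn1 at -2.43 (-3.05 to -1.80), Itm2a at -2.53 (-2.64 to -2.41) and Car2 at -2.91 (-3.24 to -2.59). Dapl1 departed by -0.53 with an interval that includes 0 (-1.46 to 0.40). St8sia1 at 1.04 (0.78 to 1.30), Eps8l1 at 2.12 (1.73 to 2.51) and Slc15a2 at 6.54 (5.25 to 7.82) lay above the sum.

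The 10 genes sit on 9 chromosomes in the RefSeq table, with Amigo2 and Pdgfb both on chromosome 15. To see whether a lower level stopped at the gene, the 2 nearest genes of at least 2 CPM on either side were read off, 40 in all, by gene order on GRCm38.p6. In Itch KO 1 of the 40 was lower than wild type and 1 was higher, where 0.846% and 4.89% of all genes were. In the library labelled DKO 6 were lower and 4 higher, beside 6.34% and 12.3% of all genes. Not one of the 40 was graded, but 0.262% of all genes were, a share too small for 40 genes to show. For Amigo2, Ttc28, Nrn1, Car2 and Dapl1 no neighbour was lower in either library. Of all genes 6.58% were lower in at least 1 of these libraries, so most genes would have few such neighbours.

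The exception in Itch KO was Gpr174, next to Itm2a, which encodes a receptor for lysophosphatidylserine. It had 6887 reads in wild type, 6480 in WWP2 KO, 2882 in Itch KO and 3279 in the library labelled DKO, log2 ratios of -1.26 and -1.17 in the last pair, a level pattern unlike that of Itm2a. Next on that side, A630033H20Rik was lower in the library labelled DKO alone (-1.73). Around Slc15a2, Iqcb1 (-0.17) and Golgb1 (-0.19) on one side and Cd86 (-0.13) on the other did not pass the measure in Itch KO, and Ildr1 was higher at 1.03, on 20 wild-type reads against 43. In the library labelled DKO Cd86 was lower (-1.77) and Ildr1 higher (2.07). Next to St8sia1, Cmas, which activates sialic acid for all sialyltransferases, was higher in the library labelled DKO (1.06) and stood at 0.32 in Itch KO. Ldhb, on the same side, was lower in the library labelled DKO (-1.58) and stood at -0.34 in Itch KO.

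**Figure D4:**
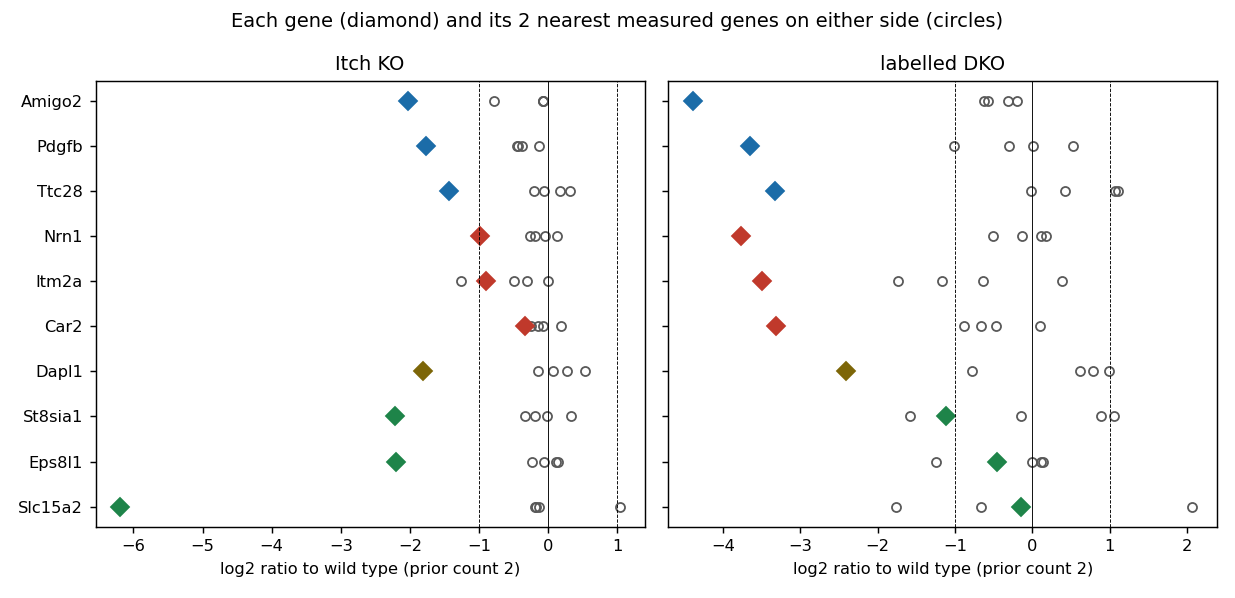
Log2 ratio to wild type (prior count 2) of each of the 10 genes (diamonds, coloured by pattern) and of its 2 nearest genes of at least 2 CPM on either side (open circles), in Itch KO and in the library labelled DKO, with dashed lines at 2-fold. Of the 40 neighbours only Gpr174, beside Itm2a, lies left of the lower line in Itch KO.

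Relatives of the 10 genes were taken from lists of their families and pathways. Beside St8sia1, 11 other genes were measured from a list of ganglioside synthesis and further sialyltransferase genes. Of these, 2 were lower in Itch KO and 0 higher, and 0 passed in WWP2 KO. In the library labelled DKO 4 were lower and 2 higher, the latter being St3gal5 and the sialyltransferase gene St8sia4. A further 6 genes of the list were below 2 CPM. Over all genes, 0.846% were lower and 4.89% higher in Itch KO, and 6.34% lower and 12.3% higher in the library labelled DKO. Median log2 ratios of the 11 were 0.02 in Itch KO and -0.09 in the library labelled DKO, and those of all 9926 genes were -0.02 and -0.03. B4galnt1, whose enzyme extends GM3 and the GD3 that St8sia1 makes, was graded, with 22437 reads in wild type, 19286 in WWP2 KO, 9763 in Itch KO and 4303 in the library labelled DKO. St8sia6 was lower at -1.17 in Itch KO and -2.15 in the library labelled DKO. St3gal5, which makes the acceptor that St8sia1 uses, stood at -0.19 in Itch KO and was higher at 1.82 in the library labelled DKO.

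Among peptide transporters the relative Slc15a3, of endosomes and lysosomes, went the other way to Slc15a2. It had 66 reads in wild type, 51 in WWP2 KO, 316 in Itch KO and 701 in the library labelled DKO, log2 ratios of 2.23 and 3.27 in the last pair. Slc15a4 did not pass in either (0.25 and 0.41), and the other 2 members were below 2 CPM. Of the carbonic anhydrases besides Car2, 3 were measured and 12 were below 2 CPM: Car12 was lower in the library labelled DKO (-1.08), Car5b was higher there (3.20) and in Itch KO (1.23), and Car15 stood at -0.98 in the library labelled DKO. Pdgfb was the only one of 7 PDGF ligand and receptor genes above 2 CPM, the receptor genes Pdgfra and Pdgfrb reaching at most 1 and 5 reads in any library.

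Of the close relatives of Eps8l1, Eps8 had at most 7 reads, Eps8l2 at most 2 and Eps8l3 0 in any library. Its partners' genes Abi1, Sos1 and Baiap2 did not pass the measure in any knockout library. Amigo1 was lower in the library labelled DKO alone (-1.10), and Amigo3 passed in none (0.13 in Itch KO, 0.19 in the library labelled DKO). Itm2b (0.53 in the library labelled DKO) did not pass, while Itm2c (1.05) and Dap (1.57) were higher there, opposite to Itm2a and Dapl1.

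Naive and quiescence genes were read beside the 10 because Dapl1 and Itm2a are known from such cells. Of 20 others on that list, 3 were lower in Itch KO and 0 higher, and in the library labelled DKO 7 were lower and 2 higher, with 0 in WWP2 KO. The shares of all genes were 0.846% lower and 4.89% higher in Itch KO, and 6.34% and 12.3% in the library labelled DKO. The list medians were 0.08 in Itch KO and -0.35 in the library labelled DKO. Tcf7 and Id3 on that list were graded as Amigo2 was. Tcf7, a transcription factor gene of naive and memory T cells, had log2 ratios of -1.27 and -2.41, and Id3, which encodes an inhibitor of E proteins, -1.64 and -3.07. Ccr7, Foxp1 and Bach2 were double-only at -2.05, -1.74 and -2.38 in the library labelled DKO. Il7r at 2.37 and Txnip at 1.26 were higher there. Whether a different share of naive cells had a part in the lower levels of the 10 genes was not tested.

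Nrn1 is known from tolerant T cells, and a list of tolerance and anergy genes was read beside it. Of 17 others, 0 were lower in Itch KO or in the library labelled DKO, 3 were higher in the former and 4 in the latter, with 0 in WWP2 KO and medians of 0.59 and 0.29. Of all genes 4.89% and 12.3% were higher in those libraries, and 0.846% and 6.34% were lower. Lag3, an inhibitory receptor gene, had log2 ratios of 2.21 and 4.97, and Tigit 1.92 and 3.50. The ligase gene Rnf128, on 14 wild-type reads, was higher at 1.13 and 2.72. Folr4, at 0.66 and 0.86, and the ligase gene Cblb, at 0.27 and -0.64, did not pass.

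Markers of other cells were read beside the 10 genes, and most lists were low. The summed B cell markers (6 genes) reached 1.35 to 3.40 CPM and the platelet markers (5 genes) at most 1.99 CPM, with Pf4 and Gp1bb at 0 reads in every library. Myeloid markers (6 genes in the table) summed to 0.583 to 1.35 CPM, with Fcgr1 at 0 reads throughout. The NK list (4 genes) summed to 5.36 CPM in wild type, 3.73 in WWP2 KO, 2.65 in Itch KO and 1.02 in the library labelled DKO. Klrb1c alone, a graded gene, carried that order. Klre1 had 5, 7, 7 and 4 reads in the same order, Ncr1 had 0, 0, 2 and 3, and Klra8 had 0 throughout. The mast cell and basophil list (5 genes) summed to 24.9, 28.9, 10.9 and 5.27 CPM in that order, through Kit alone, also graded. Mcpt8 was highest in the library labelled DKO, with 0, 2, 0 and 12 reads in that order. Cpa3 had at most 2 reads in any library, and Fcer1a and Ms4a2 had 0 reads in all 4. CD8 T cell markers (2 genes) summed to 15.9 CPM in Itch KO and 6.53 to 7.44 CPM elsewhere, most of it Cd8b1. Cd8a had 2 reads in wild type, 4 in WWP2 KO, 9 in Itch KO and 2 in the library labelled DKO. Dendritic cell markers (5 genes) summed to 7.44 CPM in wild type, 5.25 in WWP2 KO, 14.2 in Itch KO and 21.1 in the library labelled DKO, most of it Xcr1 and Zbtb46. Endothelial and stromal markers (6 genes) summed to 62.3 to 77.4 CPM, most of it Pecam1, at 1049 to 1322 reads; Col1a1 had 1 read in wild type, 3 in WWP2 KO, 21 in Itch KO and 209 in the library labelled DKO, and Cdh5 had at most 3 in any. The part of such cells in the levels of the 10 genes was not tested.

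Genes of the most similar shape were found by distance over the 3 knockout libraries' log2 ratios to wild type, among 9215 other named genes. Nearest to Amigo2 was Ncf1, an NADPH oxidase subunit, at a distance of 0.23 log2 units, with 1136 reads in wild type, 1208 in WWP2 KO, 322 in Itch KO and 57 in the library labelled DKO. Pdgfb (0.82), the RhoGAP gene Arhgap29 (0.91) and the cystine transporter gene Slc7a11 (1.21) followed. Nearest to Car2 were the chemokine gene Xcl1 (0.38), Amz1 (0.57), Itm2a (0.59) and the arginine transporter gene Slc7a3 (0.60). Nearest to Eps8l1 were St8sia1 (0.79), the thromboxane receptor gene Tbxa2r (0.88), Mst1 (0.93) and Pgpep1l (0.99). Slc15a2 had no gene near it: the closest, Eps8l1 and St8sia1, lay at 4.02 and 4.09, followed by Tlr6 at 4.64 and Tmem71 at 4.71.

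The promoter windows were compared last, for the 7 members that the RefSeq table holds (9 windows, since Eps8l1 has 3, of which a pair overlap). Nrn1, Pdgfb and Car2 are named only. Each window of 250 bases was searched on both strands. AGATAA was found in 3 of the 9 windows, those of Ttc28, Itm2a and Slc15a2, and in 9.99% of 32851 windows in the table. CCACCC was found in 5 of the 9 and 28.1% of all, GGAAA in 5 of the 9 and 55.6% of all, and CAGGTG in 3 of the 9 and 17.2% of all. By gene, GGAAA was found in 3 members and CAGGTG in 2, since several windows of Eps8l1 held them. A CAGGTG site in the overlapping pair was counted in both windows. The AP-1 motif TGACTCA (4.46% of all), the wider TGANTCA that contains it (6.75%), CACGTG (6.02%), the TCF motif AACAAAG (5.03%), the CRE motif TGACGTCA (1.55%) and the NF-kB consensus (0.140%) matched 0 of the 9. AGATAA thus matched 1 member in each of the graded, double-only and single-library patterns. Without windows for Nrn1, Pdgfb and Car2, Itm2a was the only double-only gene searched, so the patterns cannot be compared. Windows of Amigo2, at 84.0% GC, and Ttc28, at 74.8%, were above the 95th percentile of all windows (73.6%), and that of Slc15a2, at 45.2%, was below the median (52.4%). These matches describe letters in a window and show no binding.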

How the data were processed

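The values were raw read counts per gene symbol for 4 libraries, deposited by the authors in 1 table without normalization. The submitters' processing notes name build mm9, with TopHat 1.4.1, Bowtie 1.0.0 and HTSeq 0.7.1 as tools. Annotation, strand setting and filters were not given in the sources used here, so overlapping genes may share reads. Counts were scaled by TMM factors (edgeR 4.0.16, R 4.3.3). The factors were 0.984 (wild type), 0.983 (Itch KO), 1.00 (WWP2 KO) and 1.03 (library labelled DKO). Fold intervals are exact conditional binomial, level intervals exact Poisson, and intervals of shares and departures delta-method. Genes lower in WWP2 KO alone were not counted as single-library. The classification was checked on simulated counts with counting error only and planted differences well above the 2-fold measure. It was therefore not checked for genes near that measure or for spread between mice. Intervals and patterns were computed in Python 3.11.15 with scipy 1.17.1, pandas 2.3.3 and numpy 2.4.6, and plots drawn with matplotlib 3.10.9.

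The 10 genes, the patterns and the gene lists were chosen with earlier results of these data known. Genes named are the 10, members of the fixed lists, the 2 nearest measured neighbours on each side, the 4 nearest in shape to Amigo2, Car2, Eps8l1 and Slc15a2 (unnamed gene models left out), and markers; some members of the lists are counted but not reported here by name. Alternatives were DESeq2 1.42.0 size factors, total counts, 1.5-fold and 3-fold measures, other low filters and prior counts, WWP2 KO as reference, and scaling without the library labelled DKO.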

Additional observations from a re-analysis of the deposited data

How the results depend on the processing

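With 1 library per genotype, depth bounds counting error only and spread between mice is unknown. Under DESeq2 size factors or total counts every one of the 10 genes kept its pattern, and the 60 folds recomputed shifted by at most 5.07%, each inside its counting interval. All 51 recomputed shares and departures also stayed inside theirs. Taking WWP2 KO as the reference, or no prior count (both chosen after seeing the data), left the 10 patterns as they were, and 7 of the 10 were lower in Itch KO when the library labelled DKO was left out of the scaling. No paired analysis was possible because each genotype has 1 library, so the groups share 1 replicate number.

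The size of fold asked for mattered most. At 1.5-fold, Nrn1 and Itm2a passed from double-only to graded, giving 5 graded and 1 double-only gene of the 10. At 3-fold, Ttc28 became double-only and St8sia1 fitted none of the patterns. Over all genes, the 1.5-fold and 3-fold measures gave 112 and 7 graded genes (26 at 2-fold), 933 and 59 double-only (310), 133 and 4 level (33), and 60 and 2 single-library (8). Without a low filter there were 69 level and 17 single-library genes, and with a minimum of 10 CPM 20 and 4; the graded and double-only counts stayed within 1.5 times under both filters.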

Other observations

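Besides Amigo2, Pdgfb and Ttc28, 23 of the 9926 genes were graded. Those named here and not above were chosen after their values were seen. Slc7a11 had 203 reads in wild type, 103 in WWP2 KO, 61 in Itch KO and 7 in the library labelled DKO, with a log2 ratio of -0.95 in WWP2 KO that did not pass the 2-fold measure. Slc1a4, a neutral amino acid transporter gene, had 1161, 909, 546 and 159 reads in the same order. Slc6a9, a glycine transporter gene, had 746, 779, 323 and 121. Trib3, a stress-induced pseudokinase gene, had 454, 279, 191 and 61, and Pck2, the mitochondrial phosphoenolpyruvate carboxykinase gene, 969, 685, 344 and 145. Ifit3, an interferon-induced gene, had 236, 150, 68 and 22. App, the amyloid precursor gene, had 309, 285, 149 and 68.

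The mirrored shape was more frequent, since 304 genes, 3.06% of those measured, passed the 2-fold measure upward from wild type to Itch KO and again from there to the library labelled DKO. Of the 653 genes lower in Itch KO or in the library labelled DKO, 47.5% were double-only, 5.05% level, 3.98% graded and 1.23% single-library, and 42.3% fitted none of these.

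The single-library pattern was the rarest, and besides St8sia1, Eps8l1 and Slc15a2 it held 5 genes, each chosen here after its values were seen. Fam105a, with 1010 reads in wild type, 1039 in WWP2 KO, 462 in Itch KO and 1497 in the library labelled DKO, was the most heavily read. The others were Gm14085 (78, 61, 26 and 106 reads in that order), Haghl (47, 50, 22 and 76), Zfp772 (51, 50, 23 and 53) and Pstpip2 (19, 251, 6 and 32). Pstpip2, with its highest level in WWP2 KO, was 3.17-fold lower than wild type in Itch KO and the other 4 were 2.14-fold to 3.001-fold lower. Slc15a2, at 101-fold, stood apart from them in size.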
